A study of Mus musculus with 4 samples.

Results

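Fibroblast growth factor (FGF) signalling through ERK was followed in differentiating mouse embryonic stem (ES) cells by 10 genes: the ligands Fgf4 and Fgf8, the receptors Fgfr1 and Fgfr2, the inhibitors Spry1, Spry2, Spry4 and Dusp6, and the transcription factors Etv4 and Etv5. The genes were chosen by name as ligands, receptors and ERK-induced feedback genes, and their probes were found through the RefSeq accession of each probe. Of the 10 genes, 9 had a probe, with 15 probes among 41174 probes that were not controls, and all 9 were among the 21754 genes or transcripts tested. No probe matched Fgf4, which is not analysed here.

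The cells were of the D3 line, a mouse ES cell line. Silenced cells had received siRNA against Pnpla6, which encodes neuropathy target esterase, a phospholipase, by lipofection; what the control cells were given is not in the labels. Both kinds of cell were then cultured as embryoid bodies, the aggregates in which ES cells start to form the early lineages, without LIF, the cytokine that holds mouse ES cells undifferentiated. Cells were harvested at 96 h or at 24 h, and each of 4 two-colour Agilent arrays carried silenced beside control RNA of the same time, with 2 arrays per time and exchanged dyes.

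In this pathway a secreted FGF, held by heparan sulfate, joins receptor tyrosine kinases, which switch on Ras, Raf, MEK and ERK through adaptor proteins. Active ERK induces its own brakes, among them the Sprouty proteins, which act between receptor and Raf, and Dusp6, a phosphatase that inactivates ERK, together with the ETS transcription factors Etv4 and Etv5. In mouse ES cells this cascade, driven mostly by the cells' own Fgf4, moves the cells out of the undifferentiated state, and transcripts of the feedback genes are widely used as a readout of it.

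Between 62.5% and 68.7% of spots per channel were well above background, and no spot was saturated. All 15 markers of undifferentiated ES cells were well above background in each group. The level of a gene is given as a normalized log2 intensity per channel, and a difference as a log2 ratio; levels of different genes come from different probes and are not compared. Ratios of silenced to control cells were tested with limma, with a term for dye orientation and Benjamini-Hochberg adjustment over all 21754 genes or transcripts, and a gene is said to have risen or fallen where its adjusted p was under 0.05. Nothing in the labels tells whether both arrays of 1 time go back to separate cultures, so the p-values may measure technical spread alone, and in bulk RNA fewer cells of a type and less RNA per cell cannot be told apart. Pnpla6 itself stood at 10.12 and 9.83 in silenced cells at 24 h, against 10.84 in replicate 1 and 10.83 in replicate 2 of the control cells, a log2 ratio of −0.87 (SE 0.06, limma adjusted p = 2.71e-11). This call was lost with an offset of 16 (limma adjusted p = 0.0763), with the authors' ratios (0.627), without the dye term (1.00) and without any single array, at ratios of −1.002 to −0.73. At 96 h Pnpla6 stood at 10.59 and 10.36 in silenced cells and at 10.47 in both control channels, with a ratio of 0.01 (SE 0.06, limma adjusted p = 0.960).

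Promoter windows were taken for 6 members, and Fgf8, Fgfr1, Spry4 and Etv4 were left out of this search. The windows of Fgf4, Fgfr2, Spry1, Spry2, Dusp6 and Etv5 came from RefSeq (build GRCm38.p6, 250 bases before to 50 after the start of a gene). They were searched on both strands for motifs of factors at the end of the cascade and of the STAT factors, which act downstream of LIF: the octamers TGAATGAA and TGAATGGA of Capicua, a repressor that ERK inactivates, the ETS core CCGGAA, the AP-1 element TGACTCA and the STAT element TTCNNNGAA. Of 32851 promoter windows of mouse genes, 1.30%, 1.21%, 14.9%, 5.20% and 8.30% held these motifs, in the order named. Among these 6 members only Spry2 held one of them, an ETS core at position 284 of the window, counted from 1 at its 5′ end. The other 6 forms of the Capicua octamer, TGAATGAG, TGAATGGG, TCAATGAA, TCAATGAG, TCAATGGA and TCAATGGG, were added after the letters of the windows had been read. With them, 3 of the 6 members held an octamer: Etv5 held TGAATGGG at positions 9 and 53 and, on the other strand, at 120, Dusp6 held TCAATGGA on the other strand at 227 and 252, and Spry2 held TCAATGAA on the other strand at 197. Any of the 8 forms was in 7.02% of all windows, at least 2 matches in 0.444% and at least 3 in 0.0791%, and no match overlapped another. The windows of Dusp6 (chr10:99262981-99263280, plus strand), Etv5 (chr16:22438319-22438618, minus strand, 1 of its 2 windows; the other held no match) and Spry2 (chr14:105896770-105897069, minus strand) are printed 5′ to 3′ with these matches in capitals, since Dusp6 carries the silencing result below, Etv5 the fall with time, and Spry2 is a member that was not called in any comparison as fitted.
Dusp6: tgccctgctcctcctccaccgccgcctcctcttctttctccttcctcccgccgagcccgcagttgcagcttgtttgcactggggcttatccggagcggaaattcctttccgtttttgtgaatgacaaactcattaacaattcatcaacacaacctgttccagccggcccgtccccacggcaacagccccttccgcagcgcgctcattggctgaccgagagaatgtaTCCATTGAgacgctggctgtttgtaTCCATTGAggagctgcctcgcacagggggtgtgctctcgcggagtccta
Etv5: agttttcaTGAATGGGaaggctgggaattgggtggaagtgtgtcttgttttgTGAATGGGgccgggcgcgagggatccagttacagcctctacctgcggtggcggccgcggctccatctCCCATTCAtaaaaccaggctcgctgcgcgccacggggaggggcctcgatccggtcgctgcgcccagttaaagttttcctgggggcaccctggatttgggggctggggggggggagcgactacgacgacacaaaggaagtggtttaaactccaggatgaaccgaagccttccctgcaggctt
Spry2: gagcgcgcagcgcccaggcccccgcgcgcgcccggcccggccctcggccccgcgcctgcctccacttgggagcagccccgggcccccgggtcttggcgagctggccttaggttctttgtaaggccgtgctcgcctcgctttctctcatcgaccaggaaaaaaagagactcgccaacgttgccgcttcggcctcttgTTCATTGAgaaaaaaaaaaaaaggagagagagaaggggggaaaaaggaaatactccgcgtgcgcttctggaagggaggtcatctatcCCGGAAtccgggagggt
A match describes these letters alone; binding of the factors was not measured.

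At 96 h silenced cells had less Dusp6 and less Fgf8 than control cells, each at about 80% of the control level, while the receptors, the Sprouty genes, Etv4 and Etv5 did not pass the test. In all, 2 of the 9 members were called, both lower, beside 13.4% of all genes tested (1438 higher, 1479 lower). The median log2 ratio was −0.04 over the members and 0.001 over all genes tested, and 7 of the 9 ratios were below 0. With median centring in place of loess 4 of the 9 were below 0, with a median of 0.0067 over the members, and the same 2 genes were called.

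Dusp6 stood at 13.11 and 13.02 in silenced cells at 96 h, against 13.48 and 13.31 in control cells. Both silenced channels lay below both control channels. The log2 ratio was −0.33 (SE 0.06, 95% interval −0.45 to −0.20, n = 2 arrays, limma adjusted p = 2.45e-04), or 79.8% of the control level; it was −0.36 on replicate 1 and −0.29 on replicate 2. Dusp6 has a single probe on this array, with a spot signal 176 to 423 times its local background. Its ratio was −0.33 with a background offset of 16 in place of 50, and also −0.33 in the authors' own ratios.

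Fgf8, a ligand of the epiblast and primitive streak, stood at 6.79 and 6.69 in silenced cells at 96 h, against 7.03 and 7.09 in control cells. The groups did not overlap. The ratio was −0.32 (SE 0.06, 95% interval −0.44 to −0.19, n = 2 arrays, limma adjusted p = 3.77e-04), or 80.3% of the control level, with −0.24 and −0.39 on the 2 arrays. This probe was dim, at 1.63 to 3.86 times its local background, and its ratio moved with the processing: it was −0.43 with an offset of 16 and −0.63 in the authors' ratios.

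Both calls rest on the dye term, which coincides with the replicate number. Without it the limma adjusted p was 0.172 for Dusp6 and 0.220 for Fgf8 at the same ratios. The calls were also lost when any single array was left out (in fits without the dye term, Dusp6 −0.36 to −0.29 and Fgf8 −0.39 to −0.24) and with the authors' ratios, where 0 of the 21754 genes tested were called in limma and 3846 had an unadjusted p under 0.05. The direction was lower in all 10 alternatives for both genes. Each has a single probe, which passed the filter, so several alternatives could not alter these ratios. They are the fits without the dye term, without the filter, with the mean of all probes and without either 24 h array. The same holds for Spry1 below.

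**Figure D1:**
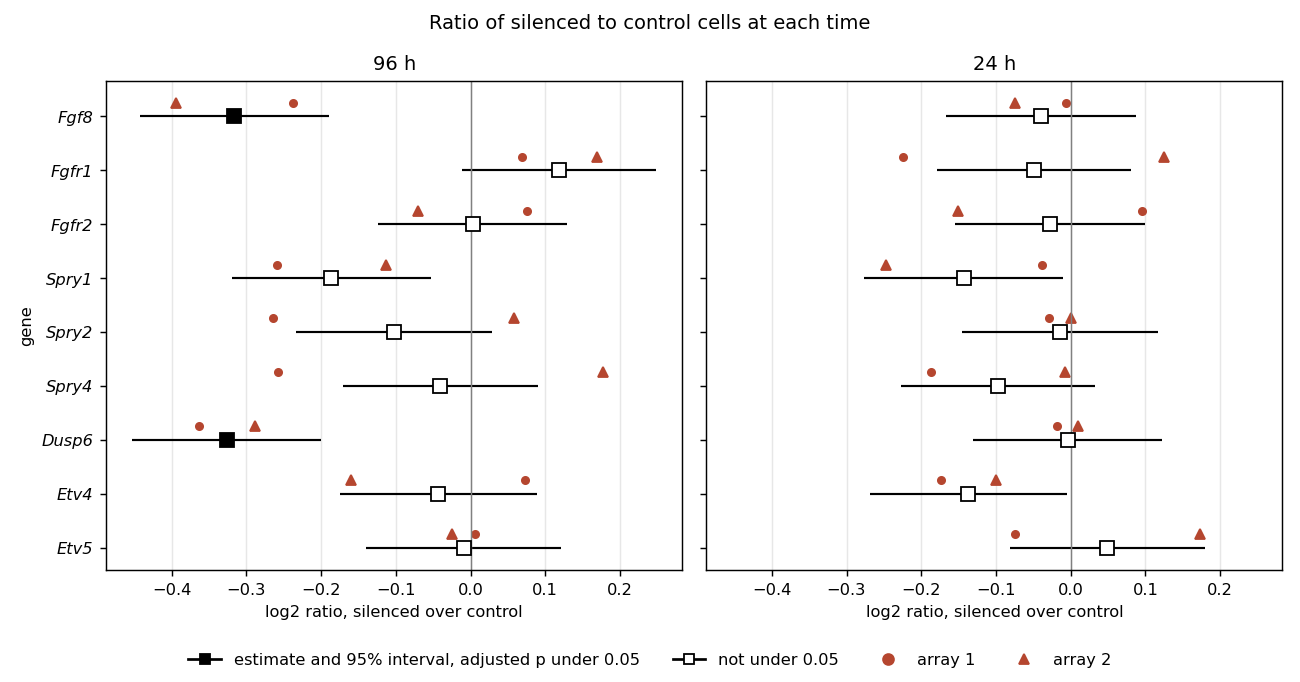
Log2 ratio of silenced to control cells (x axis) for the 9 measured genes (rows) at 96 h and at 24 h. Squares are limma estimates with 95% intervals, filled where the adjusted p was under 0.05, and the red circle and triangle above each are the ratios on replicate 1 and replicate 2. At 96 h Dusp6 (−0.33) and Fgf8 (−0.32) lie left of 0 on both arrays, and at 24 h no square is filled.

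**Figure D2:**
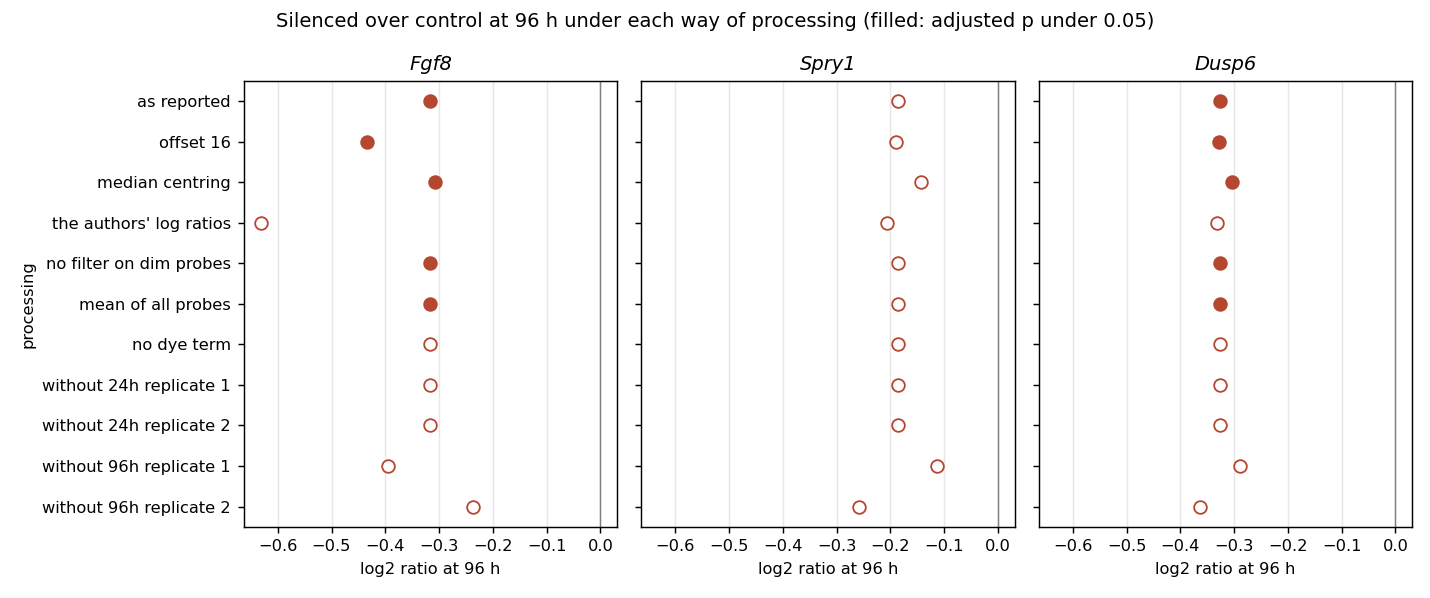
Log2 ratio at 96 h (x axis) of Fgf8, Spry1 and Dusp6 under each way of processing (rows), filled where the limma adjusted p was under 0.05. All points lie left of 0: Dusp6 between −0.36 and −0.29, Spry1 between −0.26 and −0.11, and Fgf8 between −0.63 and −0.24.

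Spry1, the first of the Sprouty inhibitors, missed the threshold. It stood at 11.54 and 11.65 in silenced cells at 96 h, against 11.80 and 11.77 in control cells. The silenced channels lay below the control channels, with a ratio of −0.19 (SE 0.07, 95% interval −0.32 to −0.05, limma adjusted p = 0.0549) and −0.26 and −0.11 on the 2 arrays. Its ratio was below 0 in all 10 alternatives (−0.26 to −0.11) and passed the test in none of them.

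The other inhibitors gave ratios of opposite sign on the 2 arrays. Spry2 stood at 8.45 and 8.61 in silenced cells at 96 h, against 8.71 and 8.55 in control cells, a ratio of −0.10 (95% interval −0.23 to 0.03, limma adjusted p = 0.347). Spry4 stood at 7.82 and 8.10 in silenced cells at 96 h, against 8.07 and 7.92 in control cells, a ratio of −0.04 (95% interval −0.17 to 0.09, limma adjusted p = 0.761). For both genes the groups overlapped, and the array ratios were −0.26 and 0.06 for Spry2 and −0.26 and 0.18 for Spry4. A second, dimmer Spry4 probe gave −0.10.

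Of the receptors, Fgfr1, the main FGF receptor of ES cells and the epiblast, stood at 8.37 and 8.43 in silenced cells at 96 h, against 8.30 and 8.26 in control cells. The silenced channels lay above the control channels by less than the test could call: the ratio was 0.12 (95% interval −0.01 to 0.25, limma adjusted p = 0.254), and the 2 dimmer Fgfr1 probes gave 0.03 and −0.003. Fgfr2, which marks the primitive endoderm in the mouse blastocyst, stood at 7.30 and 7.28 in silenced cells, against 7.23 and 7.35 in control cells, with a ratio of 0.003 (95% interval −0.12 to 0.13, limma adjusted p = 0.986). Its control channels lay on either side of the silenced ones.

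The ERK-induced ETS factors passed no test at 96 h. Etv4 stood at 10.09 and 9.91 in silenced cells, against 10.02 and 10.07 in control cells, a ratio of −0.04 (95% interval −0.17 to 0.09, limma adjusted p = 0.748). Etv5 stood at 8.87 and 8.79 in silenced cells, against 8.86 and 8.81 in control cells, a ratio of −0.01 (95% interval −0.14 to 0.12, limma adjusted p = 0.955). The groups overlapped for both genes. A second, dimmer Etv5 probe that was left out of the test gave 0.19, with 0.32 and 0.06 on the 2 arrays, so the sign for Etv5 depends on the probe.

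At 24 h, when Pnpla6 was low, none of the 9 members passed the test, beside 0.372% of all genes tested (81 genes). The median ratio was −0.04 over the members and 6.6e-04 over all genes tested. Without adjustment, 2 of the 9 had a p under 0.05, beside 1669 of all genes tested. These were Spry1, at 10.85 and 10.80 in silenced cells and 10.89 and 11.05 in control cells (ratio −0.14, SE 0.07, limma adjusted p = 0.600), and Etv4, at 11.93 and 11.97 in silenced cells and 12.10 and 12.07 in control cells (ratio −0.14, SE 0.06, limma adjusted p = 0.618). For both genes each silenced channel lay below each control channel, in the same values that gave the p by which they were picked. The share of all genes tested whose channels separate in this way, here or at 96 h, is not given. Dusp6 stood at 13.17 and 13.01 in silenced cells at 24 h, against 13.19 and 12.996 in control cells. Its ratio was −0.004 (95% interval −0.13 to 0.12), and silenced and control channels of the same array were nearly equal. Fgf8 stood at 6.72 and 6.61 in silenced cells at 24 h, against 6.72 and 6.69 in control cells, a ratio of −0.04 (95% interval −0.17 to 0.09). The ratios of the other members at 24 h ran from −0.10 for Spry4 to 0.05 for Etv5, each with an interval that held 0.

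The silencing effect on Dusp6 differed between the times. The ratio at 96 h less that at 24 h was −0.32 (SE 0.09, 95% interval −0.50 to −0.14, limma adjusted p = 0.0180), the only call among the 9 members, beside 6.92% of all genes tested. This call held without the filter on dim probes and with the mean of all probes, and was lost under the other 8 alternatives (limma adjusted p = 0.177 with an offset of 16, 0.212 with median centring and 0.653 without the dye term), with differences of −0.36 to −0.28. Neither of the 2 settings that kept the call could alter the ratios of Dusp6, since its single probe passed the filter. For Fgf8 the difference was −0.28 (SE 0.09, 95% interval −0.46 to −0.10, limma adjusted p = 0.0507), which missed the threshold. The other 7 members gave differences of −0.09 for Spry2 to 0.17 for Fgfr1, each with an interval that held 0.

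**Figure D3:**
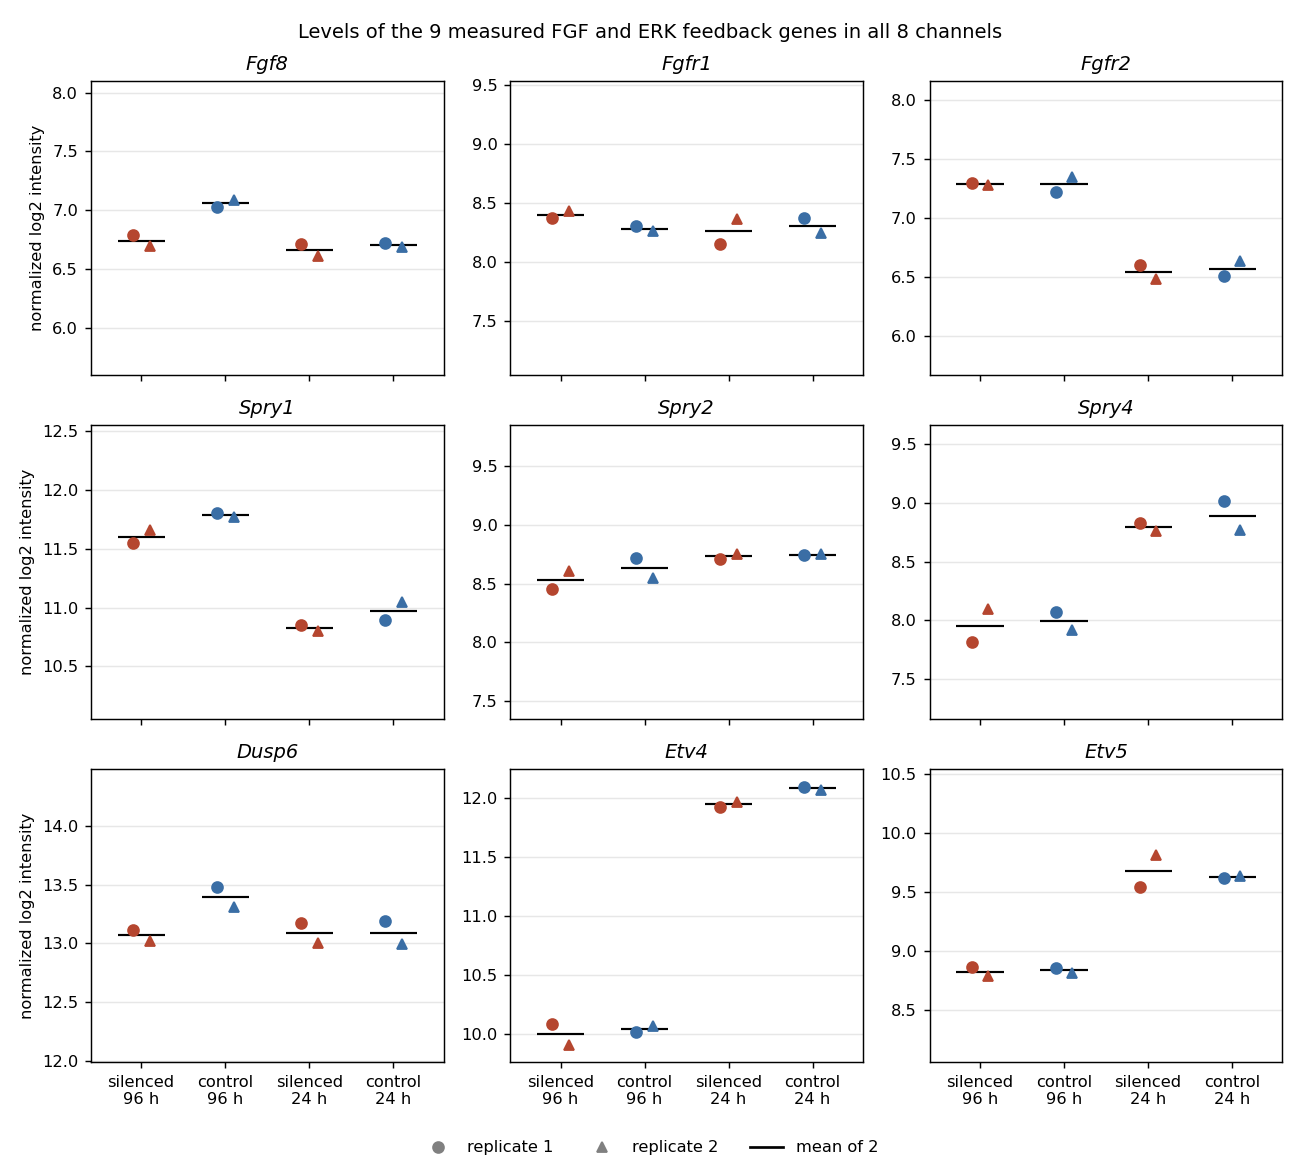
Normalized log2 intensity (y axis, the same span in each panel) of the 9 measured genes in the 8 channels, for silenced and control cells at 96 h and at 24 h (x axis). Circles are replicate 1, triangles replicate 2 and lines the mean of 2. Dusp6, Fgf8 and Spry1 stand highest in control cells at 96 h, Spry1 beside a step between 96 h and 24 h in both kinds of cell. The other panels show either such a step or little difference.

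The time comparison asked how the genes changed between 24 h and 96 h of differentiation. The times were never on the same array, so single channels were fitted, with a dye term and a correlation of 0.896 between the channels of a spot. In silenced cells Etv4, Etv5 and Spry4 fell and Spry1 and Fgfr2 rose, which makes 5 of 9 members, beside 37.8% of all genes tested. In control cells the same 5 genes moved in the same directions and Fgf8 rose as well, which makes 6 of 9, beside 36.7% of all genes tested. These comparisons share their arrays with the silencing ratios, so the silencing differences above are the differences between them. The median change was −0.02 over the members and −0.03 over all genes tested in silenced cells, and −0.03 over both in control cells, with members spread from −2.04 to 0.81 in control cells.

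Etv4 had the largest change among the members. Silenced cells held the 10.09 and 9.91 given above at 96 h and 11.93 and 11.97 at 24 h, a log2 change of −1.95 (SE 0.15, limma adjusted p = 8.57e-05). Control cells averaged 10.04 ± 0.04 at 96 h and 12.09 ± 0.02 at 24 h (SD, n = 2 each, as for the means that follow), a change of −2.04 (SE 0.15, limma adjusted p = 6.42e-05), which left 24.2% of the 24 h level. All 4 channels at 96 h lay below all 4 at 24 h.

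Etv5 fell by 0.85 on the log2 scale in silenced cells (8.83 ± 0.05 at 96 h, 9.68 ± 0.19 at 24 h, limma adjusted p = 0.00313) and by 0.79 in control cells (8.84 ± 0.03 at 96 h, 9.63 ± 0.01 at 24 h, limma adjusted p = 0.00438). The second Etv5 probe gave smaller changes, −0.19 in silenced and −0.49 in control cells. Spry4 fell by 0.83 in silenced cells (7.96 ± 0.20 at 96 h, 8.79 ± 0.05 at 24 h, limma adjusted p = 0.00281) and by 0.89 in control cells (7.996 ± 0.11 at 96 h, 8.89 ± 0.17 at 24 h, limma adjusted p = 0.00212). Its second probe gave −0.66 and −0.54. For Etv5 and Spry4, too, no channel at 96 h reached any channel at 24 h.

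Spry1 went the other way from Spry4. It averaged 11.60 ± 0.08 at 96 h and 10.83 ± 0.04 at 24 h in silenced cells, a rise of 0.77 (SE 0.17, limma adjusted p = 0.00860), and 11.79 ± 0.03 at 96 h and 10.97 ± 0.11 at 24 h in control cells, a rise of 0.81 (SE 0.17, limma adjusted p = 0.00701). Spry2 did not pass the test as fitted, with −0.20 in silenced cells (95% interval −0.54 to 0.14) and −0.11 in control cells (95% interval −0.45 to 0.22). Its change in silenced cells passed under 3 of 12 alternatives, with values of −0.28 to −0.13 over all 12, and its change in control cells under none.

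Fgfr2 rose by 0.75 in silenced cells (7.29 ± 0.01 at 96 h, 6.55 ± 0.09 at 24 h, limma adjusted p = 7.68e-04) and by 0.72 in control cells (7.29 ± 0.09 at 96 h, 6.57 ± 0.09 at 24 h, limma adjusted p = 9.53e-04). The probe was dim, at 1.55 to 6.06 times its local background, and the size of the change moved with the processing: it was 1.05 in silenced and 0.996 in control cells with an offset of 16, and 1.58 and 1.51 with the authors' processed signals, which differ in normalization as well. A second Fgfr2 probe gave 0.34 in silenced and 0.28 in control cells, and the third was well above background in 2 of 8 channels. Fgfr1 gave 0.14 in silenced cells (95% interval −0.16 to 0.45) and −0.03 in control cells (95% interval −0.33 to 0.28).

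Fgf8 rose by 0.36 in control cells (7.06 ± 0.04 at 96 h, 6.70 ± 0.02 at 24 h, SE 0.09, limma adjusted p = 0.0202), and the rise was called in all 12 alternatives. In silenced cells its change was 0.08 (6.74 ± 0.07 at 96 h, 6.67 ± 0.07 at 24 h, 95% interval −0.14 to 0.30, limma adjusted p = 0.552). Dusp6 had a like arrangement of levels: a change of −0.02 in silenced cells (13.07 ± 0.06 at 96 h, 13.09 ± 0.12 at 24 h, 95% interval −0.26 to 0.22) and of 0.30 in control cells (13.39 ± 0.12 at 96 h, 13.09 ± 0.14 at 24 h, SE 0.10, limma adjusted p = 0.0548). The control change of Dusp6 missed the threshold as fitted and passed it under 7 of 12 alternatives.

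**Figure D4:**
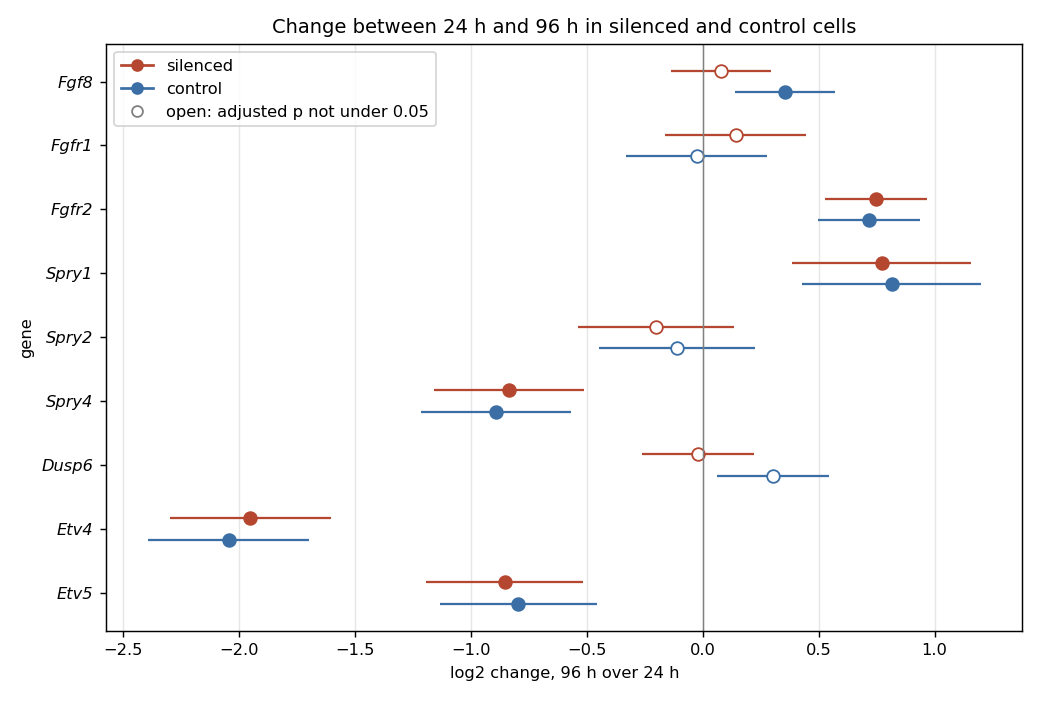
Log2 change, 96 h over 24 h (x axis), of the 9 measured genes (rows) in silenced cells (red, upper) and control cells (blue, lower), with 95% intervals, filled where the limma adjusted p was under 0.05. Etv4 lies at −1.95 and −2.04, Spry1 and Fgfr2 lie between 0.72 and 0.81, and Fgf8 is filled in control cells alone.

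By likeness of level to Dusp6 over the 8 channels of the 4 arrays, less the mean of each dye, the nearest of 11175 other genes were Exd1 (r = 0.98), Thbs3, which encodes a thrombospondin (r = 0.97), and Cnppd1 (r = 0.97). Channels of an array share its spots, and the genes were picked over the same channels that give their ratios. These are therefore descriptions, and ratios like those of Dusp6 follow in part from the choice. At 96 h their ratios of silenced to control cells were −0.25, −0.28 and −0.26, in the order named, and at 24 h they lay between −0.01 and 0.01.

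Around the members, 108 other genes of the pathway were listed by role, and 90 of them were tested. The lists, like the members, were chosen with earlier results of these data known. Of the 21754 genes or transcripts tested, 13134 had a symbol, whereas listed genes are all named. The share called in a list and that over all genes tested are therefore not a like-for-like test. At 96 h 32 of the 90 were called, 16 higher and 16 lower (35.6%, beside 13.4% of all genes tested), with a median ratio of −0.03. These calls rest on the dye term, as those of the members do: 2 of the 90 were called without it (Hs6st2 and Spp1), 0 with the authors' ratios, 12 with an offset of 16, 21 with median centring, and 0 to 2 when an array was left out. Leaving out 1 array of 96 h moved 13 of the 32 values by over 1.5 times, and the array ratios of those named are given, replicate 1 before replicate 2. At 24 h 1 was called (1.11%, beside 0.372% of all genes tested), Fgf15, which rose by 0.27 (SE 0.06, limma adjusted p = 0.0347). This call was lost with an offset of 16, without the dye term and with the authors' ratios, where 0 of all genes tested were called at 24 h.

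Over all genes tested 13.4% were called at 96 h. By role the share ran from 20% (adaptors, Ras, Raf, MEK and ERK) to 53.8% (receptors and co-receptors). Among the other FGF ligands 4 of 12 tested were called at 96 h. Fgf5, a marker of the epiblast after implantation, fell to a ratio of −0.69 (SE 0.07, limma adjusted p = 1.65e-09); the array ratios were −0.95 and −0.42. Its levels also rose with time, by 2.01 in silenced and 2.74 in control cells. Fgf2 fell (−0.32, SE 0.06), though its second probe gave 0.11, and Fgf1 (0.23, SE 0.07) and Fgf18 (0.19, SE 0.06) rose.

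Among receptors and co-receptors 7 of 13 were called, 3 higher and 4 lower. The heparan sulfate carriers split: the syndecan Sdc4 rose (0.35, SE 0.06), while the syndecan Sdc2 (−0.36, SE 0.06) and the glypicans Gpc4 (−0.33, SE 0.06) and Gpc1 (−0.27, SE 0.06) fell. The array ratios were −0.56 and −0.099 for Gpc4 and −0.41 and −0.14 for Gpc1, so both values are larger on replicate 1. Of the genes that build or edit heparan sulfate 4 of 10 were called. Sulf1, a sulfatase that removes 6-O-sulfate, fell (−0.56, SE 0.07), and Hs6st2, a 6-O-sulfotransferase, fell (−0.66, SE 0.06) by the probe tested but gave −0.02 by its other probe. Hs6st1 (0.24, SE 0.06) and Ext2, which takes part in chain elongation (0.18, SE 0.06), rose. The array ratios were 0.14 and 0.34 for Hs6st1 and 0.34 and 0.025 for Ext2, so that the value of Ext2 rests on replicate 1, and Ext2 was called under none of the 10 alternatives.

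Among adaptors, Ras, Raf, MEK and ERK 4 of 20 were called: the kinase Braf fell (−0.26, SE 0.06), and the adaptor Frs3 (0.23, SE 0.06), the scaffold Ksr1 (0.23, SE 0.07) and the ERK-activated kinase Rps6ka1 (0.23, SE 0.06) rose. The other probes of Braf gave −0.09 and −0.14. The array ratios of Rps6ka1 were 0.042 and 0.41, so that its value rests on replicate 2. Of the other inhibitors and feedback genes 5 of 18 were called, and 15 of the 18 ratios were below 0 (12 with median centring), with a median of −0.06. The phosphatases Dusp2 (−0.33, SE 0.06) and Dusp4 (−0.24, SE 0.06) fell, as did Il17rd, the Sef inhibitor (−0.34, SE 0.06), whose 2 other probes gave 0.02 and −0.03, and Spred2, a relative of the Sprouty proteins, rose (0.25, SE 0.07). The array ratios were −0.48 and −0.19 for Dusp2, −0.48 and −0.21 for Il17rd, and 0.14 and 0.36 for Spred2. Of the other ERK-responsive transcription factors and targets 8 of 17 were called, 5 higher and 3 lower. Spp1, which encodes osteopontin (0.62, SE 0.06), Ier3 (0.41, SE 0.08) and the transcription factor Tbx3 (0.36, SE 0.07) rose, and Ets1 fell (−0.35, SE 0.06). The other probes of Ets1 gave −0.24 and −0.09.

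Markers of several cell types moved at 96 h beside these genes, and their part in the results was not tested. Fgf5, an epiblast marker, and Tbx3, a marker of undifferentiated ES cells, are also among the pathway genes above. Each therefore counts in both totals. The share called ran from 25% of markers of primitive and visceral endoderm to 71.4% of markers of feeder fibroblasts. Over all genes tested it was 13.4%, and the marker lists were chosen with earlier results of these data known. Of the 51 markers tested 24 were called, against 17 when the offset was 16, 6 without the dye term, 0 with the authors' ratios and 2 to 7 when an array was left out. Of 10 markers of the epiblast after implantation and the primitive streak 4 fell and none rose, among them Fgf5 and Dnmt3b (−0.64, SE 0.06); their summed level, on a log2 scale, ran from 13.40 to 13.45 in silenced cells and from 13.93 to 14.01 in control cells. Of 15 markers of undifferentiated ES cells 7 rose, Esrrb (0.37, SE 0.06) and Sox2 (0.36, SE 0.06) among them, and 1 fell, with a summed level of 17.05 to 17.13 in silenced cells and 16.94 to 16.99 in control cells. The gene that fell was Pou5f1, which encodes Oct4, with array ratios of 0.01 and −2.11, so that its value rests on replicate 2. Of 12 markers of primitive and visceral endoderm 3 rose and none fell, Cubn (1.05, SE 0.07) and Col4a1 (0.33, SE 0.06, with 0.47 and 0.19 on the 2 arrays) among them, with a summed level of 11.78 to 11.90 in silenced cells and 11.52 to 11.56 in control cells. Of 7 neural markers 1 rose and 3 fell, Nes (−1.02, SE 0.06) and Nefl (−0.87, SE 0.06) among them, with a summed level of 10.50 to 10.62 in silenced cells and 10.88 to 10.97 in control cells. Of 7 markers of feeder fibroblasts 1 rose (Fbln2, 0.47, SE 0.07) and 4 fell. Cxcl12, among the latter, fell (−0.71, SE 0.06) by the probe tested and gave −0.12 by its other probe. The summed level of these markers was 12.70 to 12.72 in silenced cells and 12.84 to 12.95 in control cells. A summed level need not follow the genes of its list. In control cells the fibroblast sum ran from 13.20 to 13.39 at 24 h, above its span at 96 h. Yet 5 of the 7 markers were called higher at 96 h than at 24 h there, and 1 lower (Acta2, −0.83). Ttr, Mixl1, Col3a1, Lum and Postn were on the array and too dim to be tested.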

How the data were processed

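Total RNA was measured on 4 two-colour arrays. Per the labels, control RNA was in Cy5 on replicate 1 of each time and silenced RNA on replicate 2. Only 96 h replicate 2 was on a slide of its own; the other 3 arrays shared a slide, so slide and time cannot be fully told apart and no slide term was fitted. Per the file headers, signals were read out by Agilent Feature Extraction, release 10.7.1.1; limma is named, with no version, in the submitters' processing notes. In the deposited scanner files are spot, background and processed signals as intensity and log10 ratios of Cy5 over Cy3; the authors' deposited series table holds log10 ratios with a median of 0 per column, which match the scanner files, once the sign is turned on replicate 1, within 4.97e-06.

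Values were computed in R 4.3.3 with limma 3.58.1: normexp on median signals (offset 50), loess within arrays, spots of a probe averaged, probes kept where well above background on both arrays of at least 1 group (28082 of 41174), and the brightest probe per gene. Symbols came from the RefSeq table (GRCm38.p6) for 24375 probes; the arrays were designed on another build, so no coordinates come from them. The ratio fit has 1 residual degree of freedom a gene and leans on 33.1 prior degrees of freedom shared over genes. Single channels were fitted after Aquantile normalization with limma's intraspot correlation (0.896). All tests are two-sided.

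The members, the lists and the tests were chosen with earlier results of these data known. Named genes besides members and Pnpla6: up to 4 per role called at 96 h with the same sign on both arrays, largest first (2 per marker list), up to 2 per role at 24 h, and the 3 genes most like Dusp6; Pou5f1 and the markers too dim to test were named after their values were seen. In data simulated on these 21754 genes with independent genes, the ratio fit recovered 74.6% of 67 changes of 0.3 and all of 0.6 or more. It made 19 false calls. The simulated noise followed the spread that this fit had estimated, and the dye terms were its own. The recovery therefore cannot show whether the model with a dye term holds in the real data. The channel fit recovered 0%, 43.3% and 98.5% of changes of 0.3, 0.6 and 1, since the correlation was estimated at 0.891 where 0.452 was simulated. A pooled correlation of 0.452 was therefore added as an alternative after seeing the data.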

Additional observations from a re-analysis of the deposited data

Results flagged for a closer look

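In 2 results the silencing effect differed between the times by the test of the difference itself. For Dusp6 the silenced over control log2 ratio was −0.33 at 96 h and −0.004 at 24 h, a difference of −0.32 (SE 0.09, limma adjusted p = 0.0180), and the ratio was lower on 2 of 2 arrays at 96 h. For Pnpla6, the target of the siRNA, it was 0.01 at 96 h and −0.87 at 24 h, a difference of 0.87 (SE 0.09, limma adjusted p = 6.61e-09), and the ratio was lower on 2 of 2 arrays at 24 h. The Pnpla6 difference lost its call without the dye term (limma adjusted p = 0.177), with the authors' ratios (0.273) and without any single array (0.204 to 0.472), with values of 0.72 to 1.01 over all 10 alternatives; the Dusp6 difference lost its call under 8 of the 10.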

How the results depend on the processing

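The 2 arrays per time and the 1 residual degree of freedom limit all calls, and the dimness of Fgf8 and Fgfr2 limits their sizes. Over 486 values of members under alternatives, 421 kept their side of the threshold and their direction, 20 lost a call and 11 gained one. Of the 486, 313 were called in neither setting, and 34 of these changed sign. All lost calls were of silencing: Dusp6 and Fgf8 at 96 h were each called under 4 of 10 alternatives, and the Dusp6 difference under 2 of 10. Calls of members with time were kept under all 12 alternatives. The causes were not tested. At 96 h all 9 members kept their side of the threshold with an offset of 16, median centring, no filter on dim probes and the mean of all probes. The dye term is the replicate block of the silencing effects, since dye and replicate number coincide, and with no replicate block the silencing effects lost most calls: 106 genes passed at 96 h (all among the 2917), 0 at 24 h and 0 in the difference (216 and 1297 at an unadjusted p under 0.05), while members gave 0 calls in either. Replicate 1 deviated alike at both times (r = 0.70 over genes), which 2 pairs cannot tell from a dye effect. With an offset of 16 the calls were 1017 at 96 h, 0 at 24 h (1615 at an unadjusted p under 0.05) and 271 for the difference, with 0 members in the difference. With median centring they were 1798 at 96 h (1126 higher, 672 lower, against 1438 and 1479 with loess), 42 at 24 h and 737 in the difference, with 0 members in the difference. With the authors' log ratios 0 genes and 0 members were called at 96 h, 0 genes at 24 h, and 0 genes and 0 members for the difference (3846, 1571 and 2937 at an unadjusted p under 0.05). With the mean of all probes 9 genes were called at 24 h and 957 for the difference. Leaving out each array in turn, without the dye term, called 29 to 114 genes and 0 members at 96 h, 0 genes at 24 h (193 to 296 at an unadjusted p under 0.05), and 0 genes and 0 members for the difference (844 to 1084). Leaving out 96 h replicate 2 is also the fit within the first slide. For the change with time a replicate block called 12676 genes in silenced cells and 12468 in control cells, and leaving out an array 10074 to 12502 in silenced cells (the most without 24 h replicate 1) and 10140 to 12088 in control cells (the most without 24 h replicate 2), while the members called stayed within 1.5 times. Values that reversed, called in neither setting, were these. Median centring gave 0.0067 for Spry4, 0.0087 for Etv4 and 0.043 for Etv5 at 96 h, and 0.0012 for the difference of Spry1. The mean of all probes gave, for Etv5, 0.090 at 96 h, −0.031 at 24 h and a difference of 0.12, −0.029 for the difference of Spry4, and 0.013 for Dusp6 with time in silenced cells. The authors' processed signals gave 0.0072 for Fgfr1 with time in control cells. Leaving out arrays spanned, at 96 h, −0.070 to 0.076 for Fgfr2, −0.26 to 0.059 for Spry2, −0.26 to 0.18 for Spry4, −0.16 to 0.073 for Etv4, −0.025 to 0.0065 for Etv5 and −0.11 to 0.12 for Pnpla6. At 24 h it spanned −0.22 to 0.12 for Fgfr1, −0.15 to 0.095 for Fgfr2, −0.028 to 4.6e-04 for Spry2, −0.019 to 0.010 for Dusp6 and −0.075 to 0.17 for Etv5. For the difference it spanned −0.0062 to 0.34 for Fgfr1, −0.092 to 0.15 for Fgfr2, −0.15 to 0.061 for Spry1, −0.25 to 0.073 for Spry2, −0.16 to 0.27 for Spry4, −0.023 to 0.21 for Etv4 and −0.18 to 0.065 for Etv5. With time it spanned −0.089 to 0.039 for Fgfr1 in control cells and −0.13 to 0.079 for Dusp6 in silenced cells.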

Other observations

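Several pathway genes that passed the test at 96 h and were not described above also differed between silenced and control cells there, and were chosen after their values were seen. The receptor Fgfr4 (0.22, SE 0.06) and the co-receptor Klb (0.21, SE 0.07) rose, and the glypican Gpc3 fell (−0.22, SE 0.06), with array ratios of −0.44 on replicate 1 and −0.0052 on replicate 2, so that its value rests on replicate 1. The phosphatase Dusp9 fell (−0.23, SE 0.06). Of the 7 Dusp genes tested among those listed here 4 fell, Dusp6 included, beside 1479 of all 21754 genes tested. Dusp1 (0.0046), Dusp7 (−0.0032) and Dusp14 (−0.057) did not pass the test, and Dusp genes outside the lists were not counted. The transcription factor Myc fell (−0.34, SE 0.06) and Elk3 rose (0.25, SE 0.07), with array ratios of −0.20 and −0.47 for Myc and 0.12 and 0.38 for Elk3. All these calls were lost without the dye term, with the authors' ratios and without any single array. With time 42 of the 90 other pathway genes tested were called in silenced cells, 22 higher and 20 lower (46.7%, beside 37.8% of all genes tested). In control cells 41 were called, 21 higher and 20 lower (45.6%, beside 36.7%). Myc fell by 2.21 in silenced cells and by 1.95 in control cells, and Egr1 fell further (−2.89 and −2.97). Dusp4 rose by 1.60 in silenced cells and by 1.78 in control cells, and Sdc4 rose further (2.28 and 1.82).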
